A study of Mus musculus with 3 samples.

Results

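The 7 genes described here encode the chains that carry the T cell receptor signal and the co-receptors of T cells: Cd3e, Cd3d, Cd3g and Cd247 for the CD3 complex, Cd8a and Cd8b1 for CD8, and Cd4 for CD4. They are 7 of 21728 protein-coding genes on the autosomes and X, and fragments were counted over each gene body plus 2 kb upstream and in 1 kb windows along the loci. They had been picked from values of these same libraries, in which CD3 and CD8 genes stood among the highest whole-library ratios of sunitinib over vehicle, so those ratios are given as a description. The libraries came from snap-frozen hearts of wild-type mice and hold the chromatin accessibility (ATAC) arm of single-nucleus multiome libraries, for which the transposase Tn5 cuts open chromatin; their RNA was not analysed here. The 3 groups, of 1 library each, were sunitinib together with Yoda1 (title Yoda1), sunitinib alone (title TKI) and vehicle (title Control). Sunitinib inhibits receptor tyrosine kinases, and Yoda1 is a chemical activator of the stretch-gated channel PIEZO1. All 3 titles carry 3 months, and whether this is an age or a treatment time, and how many animals a library holds, is not stated. With 1 library per group no difference could be set against the spread between animals, so no test was made, and every 95% interval below covers counting error only.

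The sunitinib plus Yoda1 library held 583039 fragments, the sunitinib library 23633667 and the vehicle library 18688119. Barcodes called as nuclei numbered 12, 3871 and 2702 in that order of libraries, and 22 nucleus barcodes were shared between the sunitinib and vehicle libraries. The heart label was borne out by cardiomyocyte-like nuclei, whose 10 of 10 marker genes exceeded all other nuclei by 2-fold or more and which made up 9.51% of sunitinib nuclei and 9.22% of vehicle nuclei.

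In T cells the receptor that binds antigen has no signalling tail of its own, and CD3 epsilon, delta and gamma together with the CD247 zeta chain carry its signal into the cell. CD4 and CD8 bind the molecules that present antigen and bring the kinase LCK to the receptor. Developing T cells in the thymus pass through a stage at which both co-receptors are expressed before one of them is silenced, while mature T cells usually keep one. The heart is not a site of T cell development, and its resident T cells are mature.

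The 3 genes of the chromosome 9 cluster lie close together (mm10). Cd3g (chr9:44969572-44980431, minus strand) and Cd3d (chr9:44981786-44987339, plus strand) are transcribed away from each other from start sites 1355 bases apart, and Cd3e (chr9:44998740-45009627, minus strand) follows next to Cd3d. Their counted regions share 2646 bases between Cd3g and Cd3d, so 328 fragments with sunitinib and 75 with vehicle counted for both genes. Cd247 stands alone on chromosome 1 (chr1:165788681-165877277, plus strand), where its last part overlaps the antiparallel gene Pou2f1. On chromosome 6, Cd8b1 (chr6:71322788-71337494) and Cd8a (chr6:71373427-71379173) run in the same direction on the plus strand, and Cd4 (chr6:124864692-124888221) lies far from them on the minus strand. The start site of Smyd1, a muscle gene, lies 555 bases from that of Cd8b1 on the other strand.

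The promoters of the 4 CD3 chains are shown because their start site windows stood out in the thymocyte-like nuclei described below and because all 4 hold the same 6-base word. Each runs from 250 bases before to 50 after the start site (RefSeq, GRCm38.p6), 5′ to 3′ along the gene, with CAGGTG or its reverse complement CACCTG in capitals.
Cd3e (chr9:45009562-45009861, minus strand): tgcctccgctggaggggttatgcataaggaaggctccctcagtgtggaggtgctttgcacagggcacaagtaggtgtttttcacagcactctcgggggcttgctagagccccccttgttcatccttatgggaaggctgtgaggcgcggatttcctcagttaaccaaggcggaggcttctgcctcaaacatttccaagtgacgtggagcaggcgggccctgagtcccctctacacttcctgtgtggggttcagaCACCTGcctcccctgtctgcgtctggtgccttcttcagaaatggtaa
Cd3d (chr9:44981536-44981835, plus strand): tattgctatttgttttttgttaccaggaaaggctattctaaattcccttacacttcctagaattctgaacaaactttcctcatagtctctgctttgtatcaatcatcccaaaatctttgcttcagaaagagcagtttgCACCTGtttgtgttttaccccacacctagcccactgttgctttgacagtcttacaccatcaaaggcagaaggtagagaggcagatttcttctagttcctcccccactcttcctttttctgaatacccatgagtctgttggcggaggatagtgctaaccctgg
Cd3g (chr9:44980382-44980681, minus strand): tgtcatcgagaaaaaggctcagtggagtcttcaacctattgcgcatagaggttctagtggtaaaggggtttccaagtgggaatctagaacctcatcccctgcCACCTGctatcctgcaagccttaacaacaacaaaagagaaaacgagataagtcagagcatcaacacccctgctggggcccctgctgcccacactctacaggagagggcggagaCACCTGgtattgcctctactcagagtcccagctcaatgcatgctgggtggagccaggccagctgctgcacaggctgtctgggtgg
Cd247 (chr1:165788431-165788730, plus strand): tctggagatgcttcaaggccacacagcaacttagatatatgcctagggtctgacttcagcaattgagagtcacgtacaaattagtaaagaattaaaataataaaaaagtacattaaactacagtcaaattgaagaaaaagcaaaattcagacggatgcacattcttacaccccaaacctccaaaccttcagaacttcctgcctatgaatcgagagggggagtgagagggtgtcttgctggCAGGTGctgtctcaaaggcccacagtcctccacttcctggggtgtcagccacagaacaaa
The word is an E-box, the kind of site that E proteins such as TCF12 bind. It begins at position 4 in Cd3e, -112 in Cd3d, -148 and -35 in Cd3g and -10 in Cd247, where the start site is position 1 and the base before it -1. A promoter was found for 5 of the 7 genes (not for Cd8b1 and Cd4), and 4 of the 5 hold the E-box on either strand, against 20.03% of all 27025 promoters of the same length. The Cd8a promoter does not hold it. In thymocyte-like nuclei (defined below) the 4 promoters with the E-box had 50 fragments with sunitinib and 8 with vehicle for Cd3e, 41 and 2 for Cd3d, 58 and 5 for Cd3g, and 20 and 6 for Cd247. The Cd8a promoter, without it, had 27 and 8, more than that of Cd247. The ETS word GGAAGT was found in 3 of 5 (24.1% of all promoters), its shorter core GGAA, which overlaps it, in 5 of 5 (95.9%), the TCF word CTTTGA in 2 of 5 (16.2%), the GATA word AGATAA in 1 of 5 (11.4%), and the RUNX word TGTGGT (16.9%) and the TATA box TATAAA (8.88%) in 0 of 5. These are matches of letters in a window and say nothing of what binds there.

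The first comparison asks how accessible the 7 genes were in the sunitinib library and the vehicle library as a whole. Cd3e, which encodes the epsilon chain, had 623 fragments with sunitinib and 161 with vehicle, or 26.4 (24.3 to 28.5) and 8.62 (7.34 to 10.1) FPM, which stands for fragments per 1000000 fragments of the set of barcodes named. Cd3d, the delta chain, had 724 and 225 fragments (30.65 and 12.05 FPM), and Cd3g, the gamma chain, had 507 and 162 (21.5 and 8.67 FPM), sunitinib first in both. Levels in the sunitinib library were thus above those in the vehicle library for the whole chromosome 9 cluster, with log2 ratios of 1.61 (1.36 to 1.87) for Cd3e, 1.345 (1.13 to 1.57) for Cd3d and 1.304 (1.05 to 1.57) for Cd3g. Cd8b1, the beta chain of CD8, had 883 fragments with sunitinib and 279 with vehicle, at a log2 ratio of 1.32 (1.13 to 1.52). Cd8a, the alpha chain, had 341 with sunitinib and 115 with vehicle, at 1.225 (0.92 to 1.55). The other two genes differed less. Cd247 had 3548 fragments with sunitinib and 1700 with vehicle (150 and 91.0 FPM, log2 ratio 0.72, 0.64 to 0.81), and Cd4 had 824 and 366 (34.9 and 19.6 FPM, 0.83, 0.65 to 1.01). In such whole-library values, more cells of a type and more accessible chromatin per cell cannot be told apart.

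At least 2-fold higher in the sunitinib library were 5 of the 7 genes, against 0.263% of the 16726 measured genes, of which 0.012% were at least 2-fold lower. Cd3e ranked 1, Cd3d 5, Cd8b1 8, Cd3g 11, Cd8a 15, Cd4 95 and Cd247 144 among them. These ranks are what the genes were picked on. The median gene stood at 0.10, and dividing by fragments over start sites instead of all fragments shifted every gene by -0.24, to a median of -0.14 with Cd3e at 1.37, Cd247 at 0.48 and Cd8a, at 0.98, no longer 2-fold higher. Within 1 kb of the start site the Cd4 ratio was 1.59. Marker lists moved with these genes: summed over 12 T cell markers the level was 748 FPM with sunitinib and 474 with vehicle, and over 8 immature thymocyte markers 462 and 287, with none of either list at 0. The summed level was 70.0 with sunitinib and 78.8 with vehicle over the 6 measured of 8 thymic epithelium markers, 353 and 396 over 8 B cell markers, and 676.5 and 704 over 10 cardiomyocyte markers. The part of these cell types in the result was not tested.

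**Figure D1:**
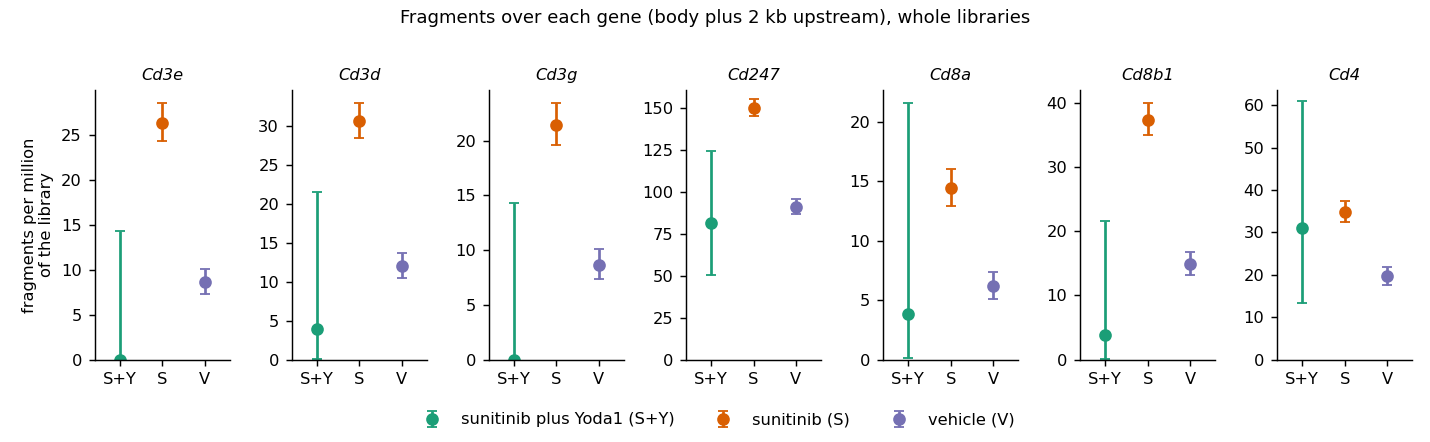
FPM (fragments per 1000000) over each of the 7 genes in the sunitinib plus Yoda1, sunitinib and vehicle libraries, with exact 95% Poisson intervals (counting error only). The y axes differ between panels and start at 0. All 7 genes are higher with sunitinib than with vehicle, and the sunitinib plus Yoda1 values rest on 0 to 21 fragments with at least 100 read pairs.

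The next comparison asks which nuclei the fragments came from. Nuclei were clustered without the genome within 50 kb of the 7 genes, and no member was a marker. A cluster of 1579 nuclei was at least 2-fold above the remaining nuclei at 7 of 8 immature thymocyte markers (such as the recombinase genes Rag1 and Rag2) and 11 of 12 T cell markers. It is called thymocyte-like. It held 1346 of 3871 sunitinib nuclei (34.8%, exact Clopper-Pearson interval 33.3 to 36.3) and 233 of 2702 vehicle nuclei (8.62%, 7.59 to 9.75). A mixed lymphoid cluster was split further, after its markers had been seen, into T or natural killer-like nuclei (89 with sunitinib, 40 with vehicle), B-like nuclei (28 and 42) and 18 lymphoid nuclei that stayed unnamed (6 and 12). A cluster of low start-site enrichment was left unnamed.

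In the sunitinib library, thymocyte-like nuclei carried 61.7% (Cd4) to 76.4% (Cd8b1) of the nucleus fragments of 6 genes and 49.9% of those of Cd247. They held 25.65% of all nucleus fragments there. With vehicle they held 6.15% of all nucleus fragments. Their vehicle shares were 31.3% (Cd4) to 46.8% (Cd8a) for the same 6 genes and 16.85% for Cd247. Cd8b1 had 414 fragments in thymocyte-like nuclei and 128 in all other nuclei of the sunitinib library, or 125 and 13.3 FPM of those nuclei (log2 ratio 3.23, 2.94 to 3.53). Cd3d had 325 and 119 (2.98, 2.68 to 3.30), Cd3e 243 and 93 (2.92, 2.57 to 3.28), Cd3g 228 and 89 (2.89, 2.53 to 3.26) and Cd8a 129 and 51 (2.87, 2.40 to 3.37), in each case with thymocyte-like nuclei far above the others. Cd4 had 274 fragments in thymocyte-like and 170 in other nuclei (2.22, 1.94 to 2.51). Cd247 had 1074 and 1080 (1.53, 1.40 to 1.65), so it differed least between the 2 sets of nuclei. Of 13109 measured genes 5.98% were at least 2-fold higher and 10.2% at least 2-fold lower in thymocyte-like nuclei. Of the 7 genes Cd8a missed the filter on low counts (200 fragments in both sets together), and most of the others passed it through their fragments in thymocyte-like nuclei, so nothing is read from a count of those that passed. In the vehicle library the same ratios ran from 1.63 for Cd247 (136 fragments in thymocyte-like and 671 in other nuclei) to 3.75 for Cd8a (22 and 25). Only Cd247 passed the filter there, where 4.55% of 3427 genes were at least 2-fold higher. Counted within 1 kb of start sites, the 4 CD3 genes together stood at 3.15 with sunitinib and 3.60 with vehicle, against 1.89 and 1.97 over gene bodies. Over gene bodies Cd247 held 1074 of the 1709 CD3 fragments in thymocyte-like sunitinib nuclei and 1080 of the 1333 in other nuclei.

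Per kb of counted region in thymocyte-like nuclei, the order of levels with sunitinib was Cd3d at 12.95 FPM per kb (11.6 to 14.4), Cd8b1 at 7.46 (6.76 to 8.21), Cd3e at 5.68 (4.98 to 6.44), Cd3g at 5.34 (4.67 to 6.08), Cd8a at 5.01 (4.19 to 5.96), Cd247 at 3.57 (3.36 to 3.79) and Cd4 at 3.23 (2.86 to 3.64). The intervals of Cd3e, Cd3g and Cd8a overlap, as do those of Cd247 and Cd4. The Cd3d region is short and holds the Cd3g promoter as well as its own. With vehicle Cd3d was again the highest, at 9.15 (6.37 to 12.7), and Cd247 the lowest, at 2.96 (2.49 to 3.51).

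T or natural killer-like nuclei, in which natural killer markers were accessible beside T cell markers, are set beside thymocyte-like nuclei next. Cd3e stood at 80.25 FPM in T or natural killer-like nuclei with sunitinib and 71.8 with vehicle, and Cd3d at 120 and 123. The log2 ratio of thymocyte-like over T or natural killer-like nuclei was -0.17 (-0.79 to 0.60) for Cd3e and -0.32 (-0.84 to 0.29) for Cd3d with sunitinib, so both intervals include 0. Cd8b1 had 125 FPM in thymocyte-like and 36.1 in T or natural killer-like nuclei with sunitinib, a log2 ratio of 1.71 (0.85 to 2.93), and 100.7 and 51.3 with vehicle (0.85, -0.34 to 2.66). Cd4 had 17 fragments in T or natural killer-like nuclei with sunitinib and 0 with vehicle. The Cd4 level of 68.2 FPM with sunitinib was 2.22-fold above 3 fragments in that class with vehicle (30.8 FPM). The interval of its log2 ratio of sunitinib over vehicle gave a weaker bound, with a lower end of 0.69, in a class of 40 vehicle nuclei.

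Outside the lymphoid clusters, a few classes had more of 1 member than the others. Cd247 stood at 146.8 FPM with sunitinib and 124 with vehicle in vascular endothelial-like nuclei, the highest of 7 such classes in both libraries, against lowest values of 44.0 (cardiomyocyte-like) and 37.3 (myeloid-like). Cd3d was highest in myeloid-like nuclei, at 33.7 FPM with sunitinib and 17.7 with vehicle, on 17 and 10 fragments. Cd4 was highest in mural-like nuclei (pericytes and smooth muscle), at 37.6 with sunitinib and 25.1 with vehicle, on 20 and 12 fragments. Cd3e, by comparison, ranged over these classes from 5.52 to 15.8 FPM with sunitinib and from 3.46 to 10.4 with vehicle.

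**Figure D2:**
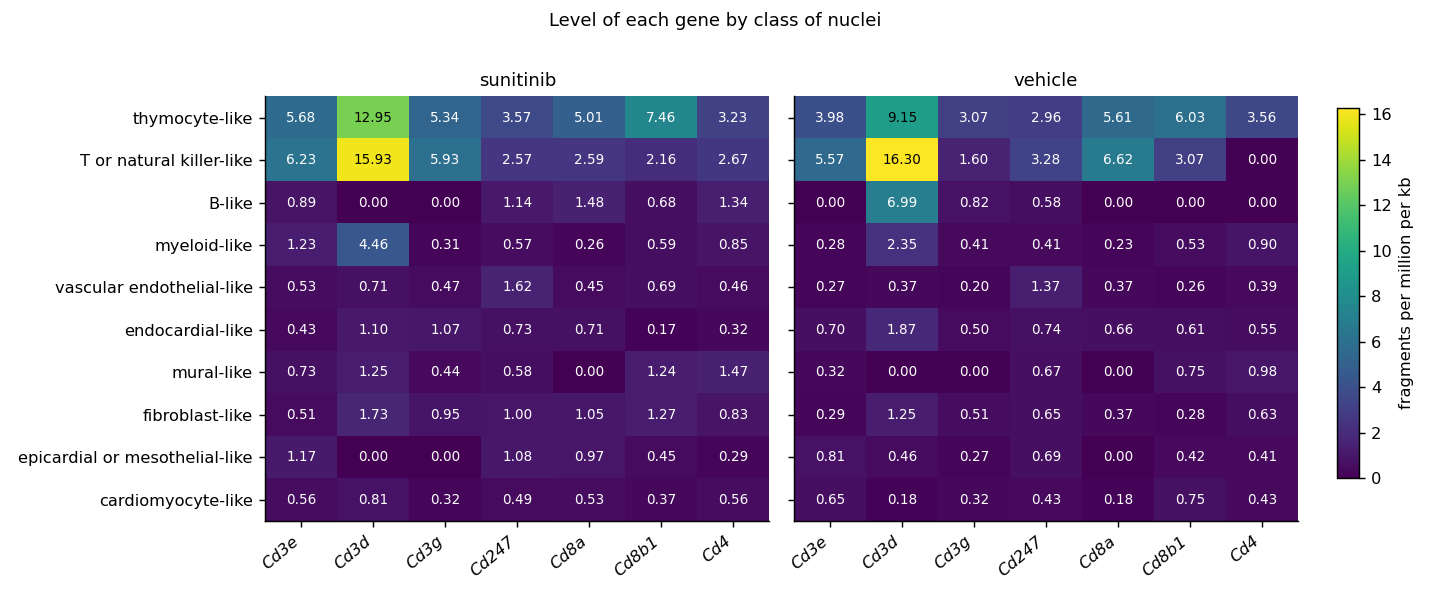
FPM of the class per kb of counted region for each gene (columns) in each of 10 named classes of nuclei (rows), in the sunitinib library and the vehicle library; unnamed nuclei are not drawn. The thymocyte-like and T or natural killer-like rows stand above the other 8 drawn for all 7 genes, except Cd4 in T or natural killer-like vehicle nuclei, which had 0 fragments. Small classes such as B-like rest on few fragments.

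Within thymocyte-like nuclei the sunitinib and vehicle libraries differed less. Cd3g had 68.6 FPM with sunitinib and 39.5 with vehicle (228 and 20 fragments), a log2 ratio of 0.77 (0.14 to 1.54). Cd3e stood at 73.2 and 51.3 (0.49, -0.08 to 1.15), Cd3d at 97.85 and 69.1 (0.48, -0.0041 to 1.05) and Cd247 at 323 and 269 (0.26, 0.01 to 0.54). Together the 4 CD3 genes were at 0.34 (0.13 to 0.55), but the interval included 0 within 1 kb of start sites (0.23, -0.14 to 0.63), in nuclei with at least 3000 fragments (0.24, -0.12 to 0.65) and for fragments shorter than a nucleosome's DNA (0.23, -0.08 to 0.57). Over gene bodies Cd247 held 1074 of the 1709 CD3 fragments with sunitinib and 136 of the 206 with vehicle. The co-receptors were on both sides of 0: Cd8b1 stood at 125 FPM with sunitinib and 100.7 with vehicle (0.30, -0.11 to 0.76), Cd8a at 38.8 and 43.4 (-0.19, -0.82 to 0.56) and Cd4 at 82.5 and 90.8 (-0.15, -0.59 to 0.34). Of the 7 genes 0 were 2-fold different, against 0.943% of 11767 measured genes 2-fold higher and 0.238% 2-fold lower. This count depended on the setting. With each nucleus thinned to 1000 fragments Cd3d was at 1.18 (0.32 to 2.34) and Cd3g at 1.58 (0.52 to 3.17). Cd3g was also past 2-fold within 1 kb of its start site (1.19, 0.20 to 2.63) and after the 5% most fragment-rich nuclei were left out (1.21, 0.43 to 2.24), but at -0.30 (-1.202 to 0.89) in nuclei with at least 3000 fragments. Among the short fragments Cd8b1 was at 1.24 (0.35 to 2.47) and Cd3e at 1.02 (0.02 to 2.465). The 2 CD8 genes together, at 0.17 (-0.17 to 0.55), turned to -0.30 within 1 kb of start sites and to -0.31 in nuclei with at least 3000 fragments, and stood at 0.91 for the short fragments.

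Depth and marker levels in thymocyte-like nuclei are given beside these ratios. The median nucleus had 2054 fragments with sunitinib and 1609 with vehicle. Summed T cell markers were at 1696 FPM with sunitinib and 1594 with vehicle, and immature thymocyte markers at 1081 and 1056. The 4 measured of 10 cardiomyocyte markers were at 188 with sunitinib and 138 with vehicle, and the 5 measured of 10 vascular endothelial markers at 345 and 336. Their part in the result was not tested.

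Barcodes too shallow to be called nuclei and nuclei of other classes were examined in the same way. Among barcodes with under 500 fragments, Cd3e had 246 fragments with sunitinib and 71 with vehicle (log2 ratio 1.78, 1.40 to 2.19), and the other 6 genes stood between 0.61 (Cd247) and 1.34 (Cd8a). Among called nuclei outside the lymphoid clusters, Cd3e had 71 fragments with sunitinib and 38 with vehicle (7.67 and 5.06 FPM, 0.59, 0.01 to 1.21) and Cd8b1 had 116 and 55 (12.5 and 7.33 FPM, 0.77, 0.30 to 1.26). The lowest of the 7 ratios there was that of Cd4 (0.25, -0.13 to 0.63) and the highest that of Cd3g (0.86, 0.24 to 1.53). These values pool classes whose shares differ between the libraries. They also include the unnamed cluster, which is left out of the count that follows. Taken class by class, sunitinib was the higher in 4 of 7 classes for Cd3g and Cd4 and in 5 of 7 for Cd3e, Cd3d and Cd8b1. For Cd247 it was the higher in 6 of 7, and for Cd8a in 6 of 6 with a value. Of these 6, myeloid-like nuclei had 1 Cd8a fragment in each library, and epicardial or mesothelial-like nuclei 1 with sunitinib and 0 with vehicle. The interval lay above 0 in 0 to 2 classes per gene. The pooled levels with sunitinib were 4.86 to 16.0 FPM for the 6 genes other than Cd247, which are far below those of thymocyte-like nuclei.

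**Figure D3:**
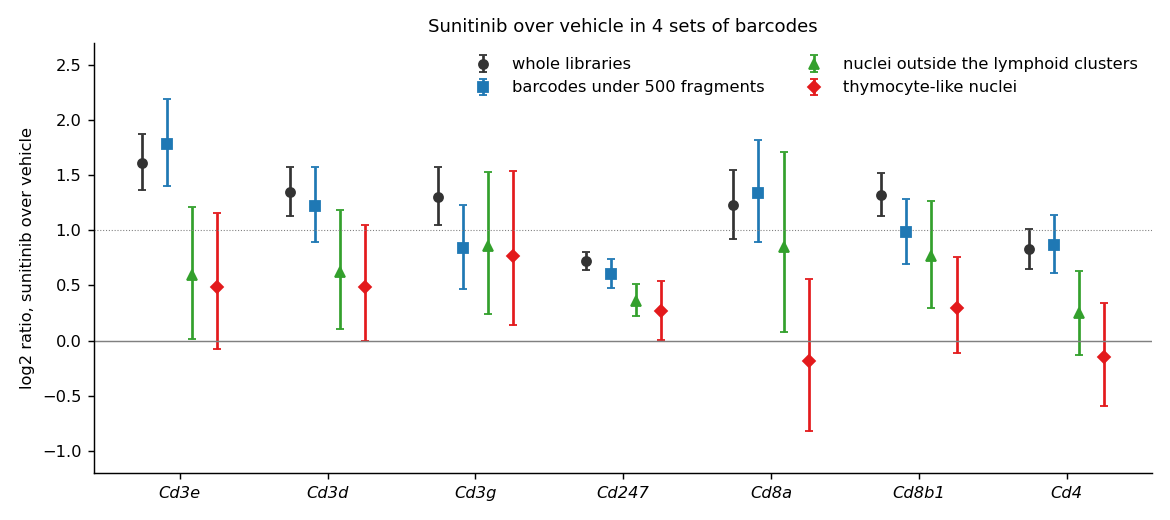
Log2 ratio of sunitinib over vehicle for each gene in 4 sets of barcodes, with conditional exact 95% intervals (counting error only) and a dotted line at 2-fold. Ratios in whole libraries and in barcodes under 500 fragments run from 0.61 to 1.78, and those within thymocyte-like nuclei from -0.19 to 0.77.

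Windows of 1 kb showed where along the loci the fragments lay. A window was taken to stand out with at least 5 times the median window of its locus and at least 20 fragments. Window counts below are not scaled to depth. Thymocyte-like nuclei held 3321522 fragments with sunitinib and 506395 with vehicle, so these counts cannot be compared directly between the libraries. Windows are placed below by the distance of their centre from the nearest start site of a member, along its transcription and negative upstream. In thymocyte-like sunitinib nuclei 14 of the 81 windows of the CD3 cluster stood out and held 61.9% of its 1294 fragments. The start site windows of Cd3e (chr9:45009001-45010000), Cd3g (chr9:44980001-44981000) and Cd3d (chr9:44981001-44982000) had 93, 81 and 65 fragments there, and 29, 21 and 18 in all other nuclei of the library. In vehicle thymocyte-like nuclei the same windows had 11, 6 and 3 fragments. At all 3 start sites thymocyte-like nuclei were the more accessible, with log2 ratios over other sunitinib nuclei of 3.20 (2.601 to 3.87) for Cd3e, 3.46 (2.78 to 4.25) for Cd3g and 3.36 (2.62 to 4.23) for Cd3d. The window over the last part of Cd3d (chr9:44986001-44987000, 4.71 kb from its start site) stood out too, with 100 fragments in sunitinib and 17 in vehicle thymocyte-like nuclei. It was also accessible in myeloid-like nuclei, with 15 fragments with sunitinib and 9 with vehicle, while the 3 start site windows had 0 to 3 there. These 15 and 9 fragments are most of the 17 and 10 that myeloid-like nuclei had over Cd3d.

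The highest window of the cluster was not one of a CD3 gene. It holds the start site of Ube4a, a ubiquitin ligase gene (chr9:44965001-44966000), with 113 fragments in sunitinib and 25 in vehicle thymocyte-like nuclei and 185 and 191 in other nuclei. Its ratio of sunitinib over vehicle in whole libraries was 0.03 (-0.20 to 0.25), against 2.03 (1.56 to 2.56) in the Cd3e start site window.

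Accessibility of the CD8 locus was spread out. The median of its 98 windows was 14 fragments in thymocyte-like sunitinib nuclei, against 6 and 7 for the CD3 and CD4 loci, while in other nuclei the medians were 6, 5 and 7 in the same order. Only 3 of the 98 windows stood out from this level. The first holds the start sites of both Cd8b1 and Smyd1 (chr6:71322001-71323000), with 125 fragments in sunitinib and 25 in vehicle thymocyte-like nuclei and 26 and 12 in other nuclei. T or natural killer-like nuclei had 0 and 1 fragments in this window. The second lies at the end of Cd8b1 (chr6:71337001-71338000, 14.7 kb from its start site), with 78 fragments in sunitinib and 6 in vehicle thymocyte-like nuclei. The third lies between the 2 genes, at -3.93 kb from Cd8a (chr6:71369001-71370000), with 78 and 17 fragments. The start site window of Cd8a itself (chr6:71373001-71374000) had 43 and 9 and did not reach the threshold.

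At the CD4 locus the most accessible window lay upstream of the gene. It is centred at -12.3 kb (chr6:124900001-124901000) and had 102 fragments in sunitinib and 21 in vehicle thymocyte-like nuclei, against 30 and 9 in other nuclei. A window in an intron of Cd4 at 2.72 kb (chr6:124885001-124886000) had 64 and 9 fragments in thymocyte-like nuclei, and the start site window (chr6:124888001-124889000) had 48 and 9. Farther upstream, a window that overlaps the end of Lag3, an inhibitory receptor gene, at -16.3 kb had 31 fragments in thymocyte-like and 131 in other sunitinib nuclei, a log2 ratio of -0.53 (-1.16 to 0.03). Its neighbour at -15.3 kb had 48 and 116 (0.27, -0.25 to 0.76), so neither shared the difference of the Cd4 windows. Of the 65 windows of the locus 8 stood out in thymocyte-like sunitinib nuclei.

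At Cd247 the windows of thymocyte-like and of vascular endothelial-like nuclei were compared. In thymocyte-like sunitinib nuclei 12 of 130 windows stood out, the highest of them in an intron at 13.8 kb (chr1:165802001-165803000) with 85 fragments in sunitinib and 11 in vehicle thymocyte-like nuclei, and with 7 and 6 in vascular endothelial-like nuclei. In vascular endothelial-like sunitinib nuclei 12 windows stood out as well, of which 4 were shared with thymocyte-like nuclei. An intronic window at 30.8 kb (chr1:165819001-165820000) had 51 fragments in vascular endothelial-like nuclei with sunitinib and 46 with vehicle, and 7 and 2 in thymocyte-like nuclei. At 48.8 kb (chr1:165837001-165838000) vascular endothelial-like nuclei had 71 and 33 fragments and thymocyte-like nuclei 35 and 1.

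**Figure D4:**
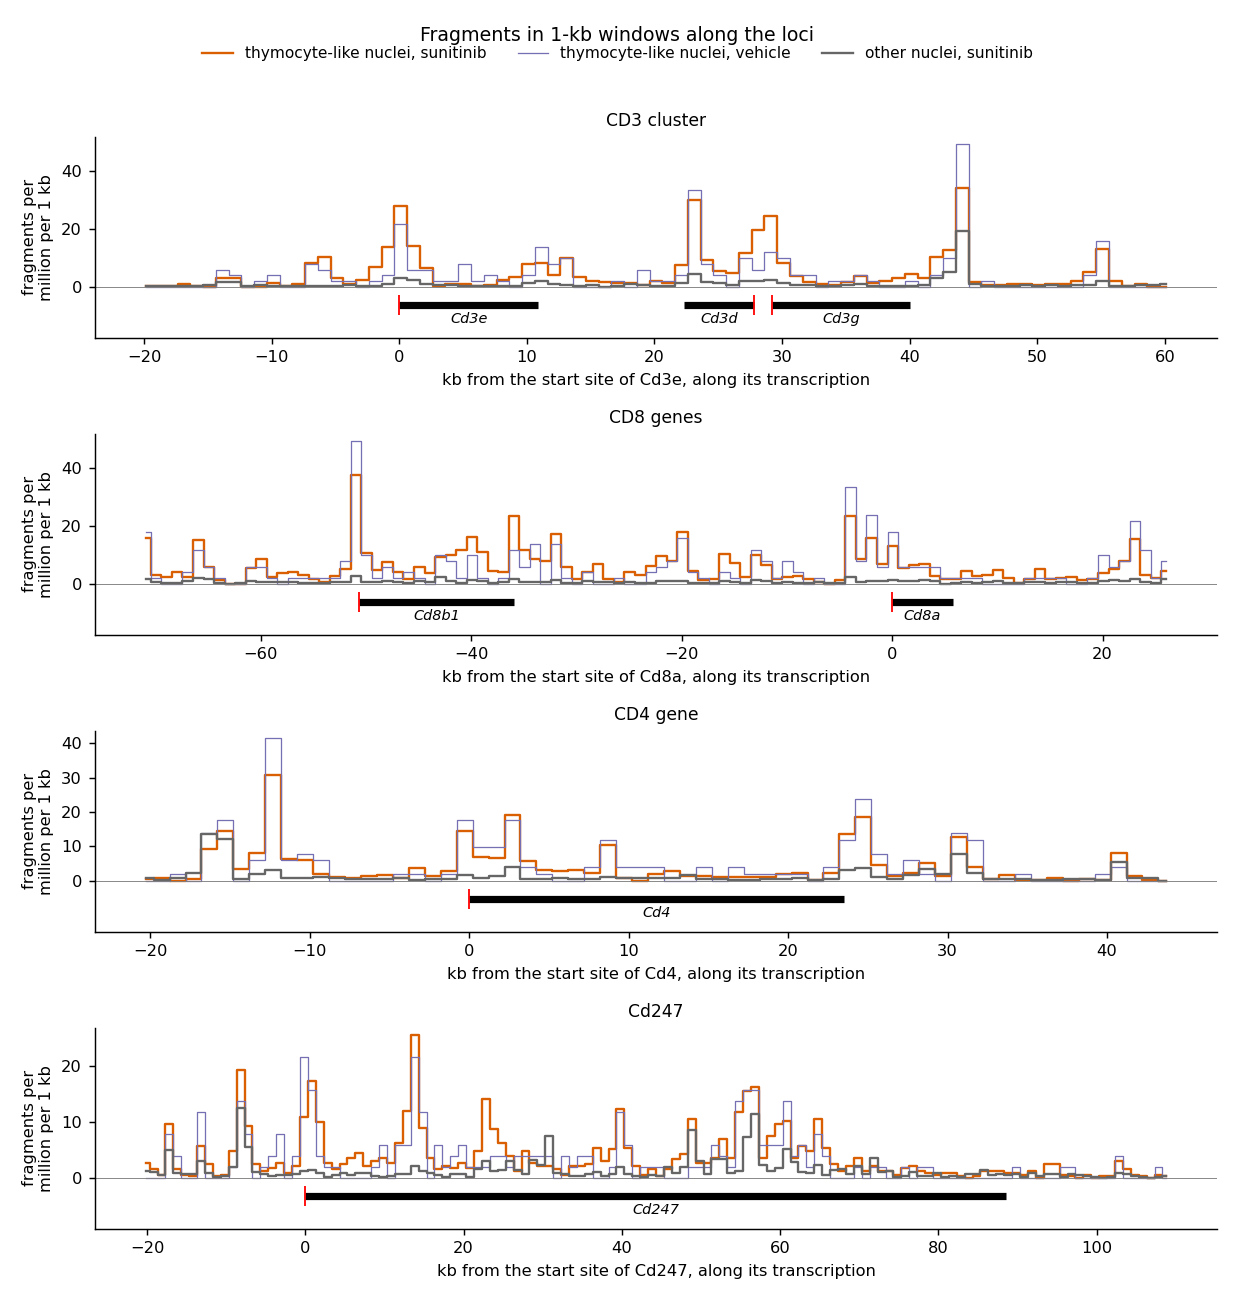
FPM (fragments per 1000000) in 1 kb windows along the CD3 cluster, the CD8 genes, Cd4 and Cd247, for thymocyte-like nuclei with sunitinib, thymocyte-like nuclei with vehicle, and all other nuclei with sunitinib. The x axes give kb from the start site of the gene named below each panel, and black bars with red ticks mark genes and start sites. The window at -12.3 kb from Cd4 and the shared start site window of Cd8b1 are the highest of their loci in thymocyte-like nuclei, and the highest of the CD3 panel is the start site of Ube4a.

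The last comparison among nuclei asks how many of them had fragments at Cd4, at CD8 or at both. Each nucleus was thinned to 1000 fragments, so that deeper nuclei did not count for more. A fragment at Cd8a or Cd8b1 was found in 208 of 1346 thymocyte-like sunitinib nuclei (15.45%, 13.6 to 17.5) and in 33 of 233 vehicle nuclei (14.2%, 9.95 to 19.3). For Cd4 the shares were 103 of 1346 with sunitinib (7.65%, 6.29 to 9.20) and 20 of 233 with vehicle (8.58%, 5.32 to 12.95). Both were hit in 16 sunitinib nuclei (1.19%, 0.681 to 1.92) and 5 vehicle nuclei (2.15%, 0.700 to 4.94). The intervals of the 2 libraries overlap in all 3 shares. Vascular endothelial-like nuclei, from cells not expected to express these genes, had a fragment at CD8 in 1.00% with sunitinib and 0.476% with vehicle, and at Cd4 in 1.18% and 1.24%. Both were hit in 0 of 1098 such nuclei with sunitinib and 0 of 1050 with vehicle, with upper bounds of 0.335% and 0.351%. Median depths before thinning were 2054 and 1609 fragments in thymocyte-like nuclei and 2818 and 2264 in vascular endothelial-like nuclei. Without thinning, thymocyte-like nuclei had a fragment at CD8 in 30.8% with sunitinib and 20.2% with vehicle, at Cd4 in 17.2% and 15.02%, and at both in 6.09% and 4.72%.

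Nuclei with and without a Cd4 fragment were then compared for CD8. Among thinned thymocyte-like sunitinib nuclei with a Cd4 fragment, 16 of 103 had one at CD8 (15.5%, 9.15 to 24.0), and among those without, 192 of 1243 (15.45%, 13.5 to 17.6). With vehicle the shares were 5 of 20 (25.0%, 8.66 to 49.1) and 28 of 213 (13.15%, 8.92 to 18.4). The intervals overlap in both libraries. A nucleus has at most a few fragments at any gene, so a nucleus without one is not shown to be closed there. In T or natural killer-like nuclei 4 of 89 with sunitinib had a thinned fragment at CD8, 4 at Cd4 and 0 at both.

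**Figure D5:**
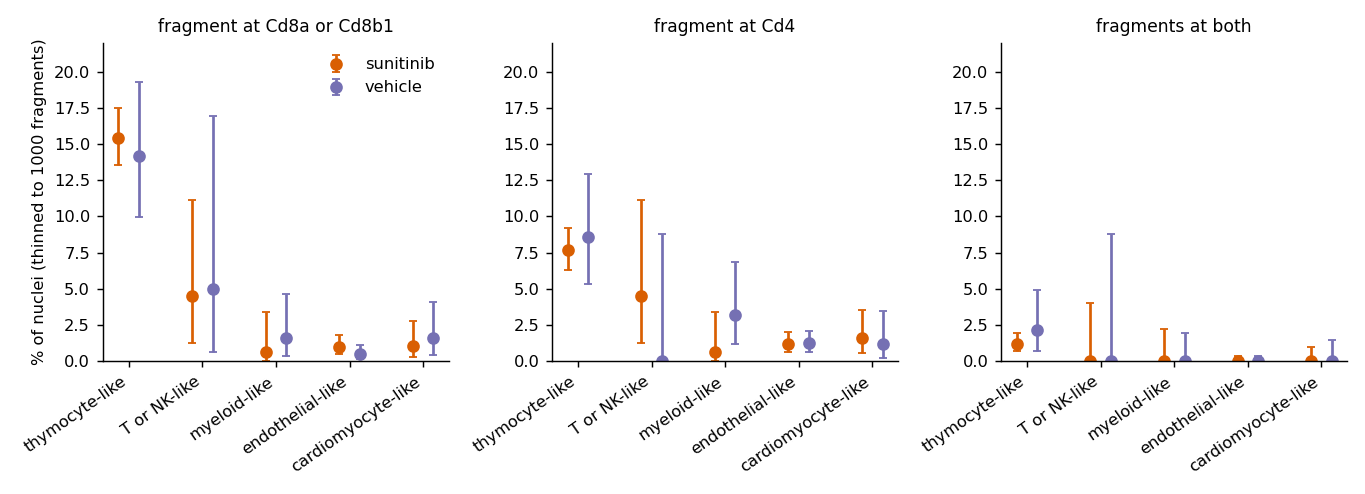
Share of nuclei, thinned to 1000 fragments each, with a fragment at Cd8a or Cd8b1, at Cd4, and at both, by class and library, with exact Clopper-Pearson 95% intervals. Thymocyte-like nuclei stand at 15.45% and 14.2% for CD8 and at 7.65% and 8.58% for Cd4 (sunitinib and vehicle), above the endothelial-like nuclei at 0.476% to 1.24%.

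The comparison of sunitinib plus Yoda1 with sunitinib alone rests on few fragments and could be made over whole libraries only. It used the 258020 fragments of the sunitinib plus Yoda1 library that were backed by at least 100 read pairs, a cutoff taken from earlier work on these data. Cd3e and Cd3g had 0 fragments in the sunitinib plus Yoda1 library, against 26.4 and 21.5 FPM with sunitinib. Set against 3 fragments, or 11.6 FPM, the sunitinib levels were 2.27-fold higher for Cd3e and 1.85-fold higher for Cd3g. The intervals of the log2 ratios over sunitinib gave weaker bounds, with upper ends of -0.88 for Cd3e and -0.58 for Cd3g. Their vehicle levels of 8.62 and 8.67 FPM lie under those 11.6 FPM. A difference from vehicle was thus not detectable at this depth. Cd3d, Cd8a and Cd8b1 had 1 fragment each, or 3.88 FPM, with log2 ratios over sunitinib of -2.40 (-8.29 to -0.50), -1.31 (-7.205 to 0.59) and -2.69 (-8.575 to -0.79). Cd247 had 21 fragments (81.4 FPM with sunitinib plus Yoda1, 150 with sunitinib and 91.0 with vehicle), a log2 ratio over sunitinib of -0.85 (-1.58 to -0.27). Cd4 had 8 fragments (31.01 FPM, against 34.9 with sunitinib), at -0.08 (-1.39 to 0.82), but 0 of the 8 lay within 1 kb of its start site, against 131 of 824 with sunitinib. Counted over all 581823 fragments of the sunitinib plus Yoda1 library, Cd3e had 0, Cd3g 2, Cd3d 6, Cd8a 1, Cd8b1 2, Cd247 38 and Cd4 23. The log2 ratios over sunitinib were then -2.32 (-5.69 to -0.78) for Cd3g and -1.46 (-3.02 to -0.44) for Cd3d. Cd247 stood at -1.18 (-1.70 to -0.74) and Cd4 at 0.21 (-0.49 to 0.78).

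Over the 4 CD3 genes the log2 ratio of sunitinib plus Yoda1 over sunitinib was -1.301 (-2.01 to -0.73), and over the 2 CD8 genes -2.42 (-5.79 to -0.88) on 2 fragments. Of the CD3 fragments Cd247 held 21 of 22 with sunitinib plus Yoda1 and 3548 of 5074 with sunitinib. Only Cd247 passed the filter on low counts and was not 2-fold different, against 5.76% of 5940 genes 2-fold lower and 1.16% 2-fold higher. Beside this, the 7 measured of 12 T cell markers summed to 298 FPM with sunitinib plus Yoda1 and 623 with sunitinib. At the same cutoff, 3 of 8 immature thymocyte markers had 0 fragments with sunitinib plus Yoda1. So did 2 of 8 B cell, 2 of 10 myeloid and 1 of 8 mature T cell markers. Of the 12 T cell, 10 cardiomyocyte and 10 vascular endothelial markers 0 were without a fragment. At this depth 1 fragment is 3.88 FPM, so a marker at 0 is not shown to be closed. The 4 measured of 10 cardiomyocyte markers summed to 1089 with sunitinib plus Yoda1 and 541 with sunitinib, and the part of cell types in the result was not tested. The treatment, the software version and the depth of this library differ together from the others and cannot be told apart.

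Genes that act with the members were described by 2 lists. Of 28 genes of T cell receptor signalling, all 28 were higher with sunitinib over whole libraries, against 64.2% of all measured genes, and 2 were at least 2-fold higher, against 0.263%. Their median was 0.64, against 0.10 for all measured genes. Scaled to start site fragments 23 of the 28 were higher, against 24.7% of all measured genes, and 1 at least 2-fold. Among the highest were Sit1, an adaptor at the receptor (1.32, 1.00 to 1.65), and Ptprc, the phosphatase CD45 (1.00, 0.87 to 1.12). The lowest were Cblb, a ubiquitin ligase that restrains the signal (0.03, -0.05 to 0.10), Fyn, a kinase of the LCK family (0.15, 0.09 to 0.21), and Vav1, an exchange factor (0.20, 0.06 to 0.34). Within thymocyte-like nuclei 17 of the 28 were higher with sunitinib, against 50.2% of all measured genes, and the median was 0.02. Of the 28, 0 were 2-fold different there, against 0.943% of all measured genes 2-fold higher and 0.238% 2-fold lower. The list shares 10 of its genes with the 12 T cell markers used beside the members above.

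Of 19 genes of the CD4 and CD8 lineage choice, 18 were higher with sunitinib over whole libraries and 1 at least 2-fold, against 64.2% and 0.263% of all measured genes, at a median of 0.47. Scaled to start site fragments 14 of the 19 were higher and 0 at least 2-fold, with Runx3 among those that changed sign. Satb1, a chromatin organiser of thymocytes, was highest (1.05, 0.95 to 1.16), followed by Ikzf1 (0.97, 0.86 to 1.08) and Myb (0.95, 0.80 to 1.12), both transcription factors of lymphoid progenitors. Zbtb7b, the factor that sets the CD4 fate, was lowest (-0.09, -0.20 to 0.01), and Runx3, the factor of the CD8 fate, stood at 0.14 (0.03 to 0.25). Compared between nuclei of the sunitinib library, 11 of the 19 were at least 2-fold higher in thymocyte-like than in other nuclei, against 5.98% of all measured genes, with Bcl11b at 2.43 (2.29 to 2.58), while Zbtb7b was at -0.40 (-0.65 to -0.16). The list shares 2 genes (Bcl11b and Tcf7) with the 12 T cell markers and 1 (Tcf12) with the 8 immature thymocyte markers. Thymocyte-like nuclei were clustered from these same data and described by these markers. The count of 11 of 19 and the Bcl11b value are therefore not separate from that description. Within thymocyte-like nuclei 15 of 19 were higher with sunitinib, against 50.2% of all measured genes, and 0 were 2-fold different, against 0.943% higher and 0.238% lower. Tcf7 was highest at 0.41 (0.09 to 0.77) and Cbfb lowest at -0.38 (-0.89 to 0.21).

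The 8 protein-coding neighbours of the members stood between 0.13 (P3h3) and 0.53 (Gpr162) over whole libraries, and 0 of them were 2-fold different. Smyd1, which shares the start site window with Cd8b1, was at 0.46 (0.37 to 0.55) and Ube4a at 0.19 (0.05 to 0.34). Without the 1 kb around start sites of other genes the summed CD8 ratio was 1.29, against 1.295 with it. Gpr162, whose start lies next to the end of Cd4, was more accessible in thymocyte-like than in other sunitinib nuclei, at 42.15 and 12.3 FPM (1.78, 1.42 to 2.15). Its 2 kb upstream run into the end of Cd4, so fragments there counted for both genes and its values are not separate from those of Cd4.

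The profile of the chromosome 9 genes over classes was also set beside those of all other genes. Over 20 profiles (10 classes in 2 libraries) the 10 genes of 14648 most like the mean of Cd3e, Cd3d and Cd3g by Pearson correlation were Iqch (0.89), Glb1 (0.88), Tlr12 (0.87), Tcf7 (0.86), Cd226 (0.86), Spo11 (0.86), Psmd9 (0.86), Ubash3a (0.85), Hist4h4 (0.85) and Dach2 (0.85). The other members were less alike, with Cd8a at rank 258 (0.67), Cd247 at rank 271 (0.67), Cd8b1 at rank 385 (0.65) and Cd4 at rank 5879 (0.19). The points share libraries and classes, and the smallest classes have few fragments, so these values are a description.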

How the data were processed

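Per the file headers, the deposited fragment files were made by cellranger-arc (2.0.0 for sunitinib and vehicle, 2.0.2 for sunitinib plus Yoda1) on mm10; they list each fragment's position, barcode and deposited count of read pairs. Fragments on the autosomes and X were counted over GENCODE M21 gene bodies plus 2 kb upstream and in 1 kb windows. Nuclei had at least 1000 fragments, a start site enrichment of at least 4, and a ratio of nucleosome-sized to shorter fragments below 4; 5 kb tiles, without those near the 7 genes, were clustered (Leiden, leidenalg 0.10.2, resolution 0.8), and no doublet caller was run. Ratios are per 1000000 fragments (FPM) of the compared set, with 95% Poisson, conditional exact or Clopper-Pearson intervals (scipy 1.17.1), which cover counting error only. Genes count as measured above a minimum of fragments, and as called past 2-fold; the minima for thymocyte-like nuclei and for Yoda1, and the enrichment of 15 below which a cluster stayed unnamed, were set after seeing the data. Members, gene lists and the minimum of 100 read pairs were chosen with earlier results of these data known. Named genes are the 7 members, their neighbours, the 3 highest and lowest of each list by a named ratio, and the 10 closest profiles; 1 gene that this rule names is not reported here. Alternatives are given in the closing section.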

Additional observations from a re-analysis of the deposited data

How the results depend on the processing

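All values here are log2 ratios unless given as counts or percent. Over whole libraries, sunitinib against vehicle stood at 0.88 for the CD3 genes, 1.295 for CD8 and 0.83 for Cd4. Of the CD3 fragments with sunitinib, Cd247 held 3548 of 5074 over gene bodies and 163 of 1086 within 1 kb of start sites. Within 1 kb of start sites CD3 was 1.445 and Cd4 1.59. In called nuclei CD8 was 1.52. In barcodes under 500 fragments CD3 was 0.79 and CD8 1.09, and among fragments shorter than a nucleosome's DNA Cd4 was 0.63. Scaled to start site fragments the 3 sets were 0.64, 1.055 and 0.59, relative to summed T cell markers 0.23, 0.64 and 0.17, and in nuclei outside the lymphoid clusters (added after seeing the data) 0.40, 0.79 and 0.25. Within thymocyte-like nuclei CD8 (0.17) was -0.30 within 1 kb of start sites, -0.31 in nuclei with at least 3000 fragments and 0.91 for short fragments; Cd3g turned to -0.30 in the deeper nuclei and Cd247 to -0.54 at start sites. Sunitinib plus Yoda1 against sunitinib was -2.25 for CD3 and -1.52 for Cd4 at start sites, the Cd4 value resting on 0 fragments and an added constant; relative to T cell markers CD3 was -0.32, Cd4 0.89 and Cd247 turned to 0.13. Thymocyte-like over other nuclei, counted at start sites, was 3.15 (sunitinib) and 3.595 (vehicle) for CD3, 3.61 (sunitinib) for CD8, and 2.955 (sunitinib) and 5.12 (vehicle) for Cd4; with at least 3000 fragments it was 1.62 for CD3 and 2.76 for CD8 in sunitinib nuclei. At 10 times the median window, 5 CD3, 0 CD8, 1 Cd4 and 1 Cd247 windows stood out in sunitinib thymocyte-like nuclei. Thinned to 2000 fragments, the shares with sunitinib and vehicle were 24.6% and 25.8% for CD8 and 13.5% and 13.6% for Cd4, with 2.99% for both with sunitinib. Nuclei with under 2000 fragments cannot be thinned to that depth, so fewer nuclei count here. The intervals with vehicle were 15.8% to 38.0% for CD8 and 6.43% to 24.3% for Cd4. At start sites the shares with sunitinib and vehicle were 5.65% and 6.87% for CD8, 1.78% and 2.15% for Cd4, and 0.223% and 0.429% for both. Without thinning (added after seeing the data) they were 30.8% and 20.2% for CD8 and 17.2% and 15.02% for Cd4, with 6.09% for both with sunitinib. The cause of these shifts was not tested. No paired analysis was possible because each group has 1 library, and for the same reason no replicate could be left out. Counts of 20 to 136 fragments per gene in vehicle thymocyte-like nuclei, and of 0 to 21 with sunitinib plus Yoda1, limit the precision.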
